A study of Homo sapiens with 4 samples.

Results

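The BCL2 family of apoptosis regulators was examined in RNA-seq data of HaCaT cells, an established human keratinocyte line, after knockdown of ALKBH5, an enzyme that removes N6-methyladenosine (m6A) from RNA. The family was taken as 10 genes chosen by name, namely BCL2, BCL2L1, MCL1, BAX, BAK1, BID, BAD, BBC3, PMAIP1 and BCL2L11, and each name matched 1 of the 58735 genes in the deposited tables. The siControl group (genotype WT) received normal control siRNA, and the siALKBH5 group (genotype ALKBH5 knockdown) received ALKBH5 siRNA, at 200 pmol with a Lipofectamine reagent in both groups. Each group has 2 libraries of 1 cell line, in which 16017502 to 18837807 reads were counted on genes. The labels do not state that the duplicates came from separate cultures, so p-values measure the spread between these libraries, which may be technical. The time between transfection and harvest is not given in the labels either.

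Proteins of the BCL2 family decide whether the outer mitochondrial membrane is permeabilised, the step that releases cytochrome c and starts the caspase cascade. BAX and BAK1 form the pores, the anti-apoptotic proteins BCL2, BCL-xL (encoded by BCL2L1) and MCL1 hold them in check, and the BH3-only proteins BID, BAD, PUMA (BBC3), NOXA (PMAIP1) and BIM (BCL2L11) bind the anti-apoptotic proteins or activate the pore formers. In the epidermis, basal keratinocytes depend on these proteins to survive stress such as ultraviolet light, and MCL1 is known for an mRNA and a protein of short half-life.

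The target was checked first. The siControl libraries held 1512 and 1576 reads of ALKBH5 and the siALKBH5 libraries held 956 and 816, which left 55.5% of the control level, so the knockdown was partial. The ALKBH5 siRNAs listed by the study are shown because they are the agent that separates the groups, and the labels do not say which of them the sequenced cells received. Capitals mark the seed, bases 2 to 8 from the 5′ end.
ALKBH5-si1 sense: aCAAGUACuucuucggcga
ALKBH5-si1 antisense: uCGCCGAAgaaguacuugu
ALKBH5-si2 sense: gCGCCGUCaucaacgacua
ALKBH5-si2 antisense: uAGUCGUUgaugacggcgc
The sites that pair with these seeds are GTACTTG for the sense strand of si1, TTCGGCG for its antisense strand, GACGGCG for the sense strand of si2 and AACGACT for its antisense strand, and they were searched on the sense strand of 1 coding transcript of each member. None of the 10 members held any of these sites in its 3′UTR, where, in the same order, 7.08%, 0.344%, 0.677% and 1.2% of 18901 genes hold them. Outside the 3′UTR, BCL2L1 held TTCGGCG and MCL1 held GACGGCG, and no other member held any of the 4 sites. The share of all genes that hold them there was not computed, and an effect of these sites was not tested.

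All 8 keratinocyte markers examined were expressed, and their summed level was 17450 to 17810 CPM (counts scaled to a common library size with TMM) in siControl and 22810 to 22850 in siALKBH5. KRT5 and KRT14, the basal keratins, made up most of this sum and rose by 0.68 and 0.22 on the log2 scale. Of the 8 markers 3 were higher and 3 were lower, with KRT17, TP63 and ITGB4 lower, and the median log2 fold change of the 8 was -0.0055. By the same test, described below, 19.3% of all genes tested were higher and 17.3% lower. Of 10 markers of fibroblasts, melanocytes, endothelial and immune cells, PDGFRB had no counts in any library and 2 passed the expression filter, COL1A1 and CDH5. CDH5 fell with a log2 fold change of -0.69. The summed level of these 10 markers was 31.3 to 31.9 CPM in siControl and 25.6 to 25.8 CPM in siALKBH5. The part of this difference in the results below was not tested.

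After ALKBH5 knockdown, mRNA of the pore former BAK1 rose by about 1.31-fold, and mRNA of MCL1, BCL2L1, PMAIP1 and BCL2L11 fell to between 78.3% and 93.3% of the control level. BAX, BID, BAD and BBC3 did not pass the test, and BCL2 was close to absent in all libraries. Of the 10 members, 9 passed the expression filter of edgeR and were tested. Among these, 1 was higher and 4 were lower at an adjusted p under 0.05 by edgeR's quasi-likelihood test. At the same threshold 36.6% of all 15075 genes tested were called, with 19.3% higher and 17.3% lower. None of the 9 members reached an absolute log2 fold change of 1, the cutoff in the methods of the study, which 2.92% of genes reached together with the adjusted p. The median log2 fold change was -0.00056 over the 9 members and -0.0081 over all genes tested.

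**Figure D1:**
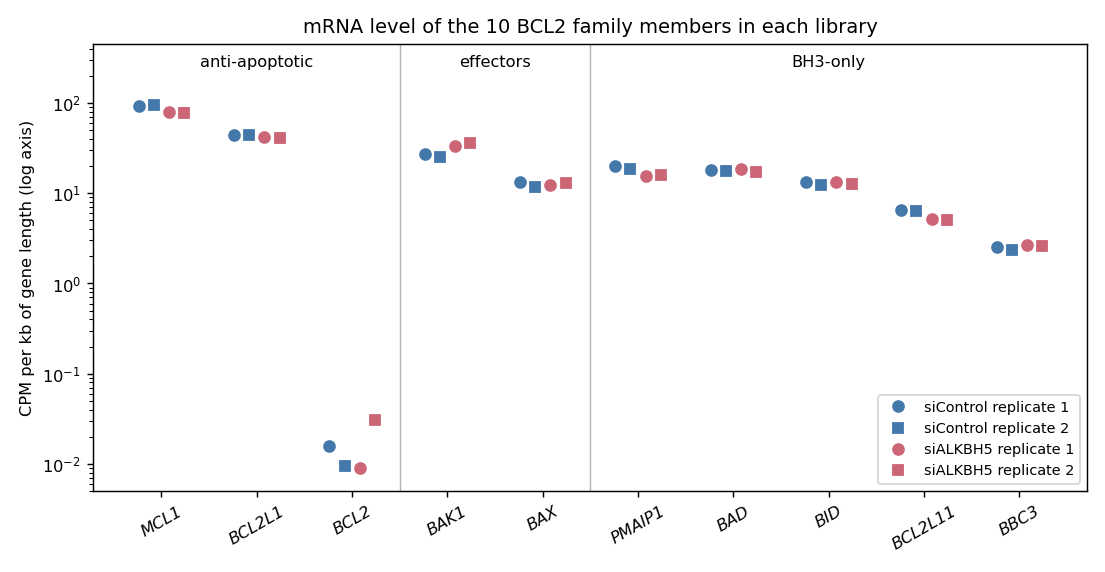
The vertical axis gives the level of each member as CPM per kilobase of gene length on a log axis, with 1 point per library (circles for replicate 1, squares for replicate 2). MCL1 has the highest level and BCL2, at 2 to 6 counts per library, the lowest, and the siALKBH5 points of BAK1 lie above its siControl points.

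Levels between genes were compared per kilobase of gene length. This length covers all annotated exons of a gene, at 2587 bases for BAX, 6658 for BCL2L11 and 2212 for BAK1. The coding transcripts searched below for motifs have 793, 1522 and 2136 bases, so the level order depends on the length used. In siControl the order was MCL1 at 94.2 ± 1.41 CPM per kb (SD, n = 2), BCL2L1 at 44.5 ± 0.225, BAK1 at 26.3 ± 1.17, PMAIP1 at 19.5 ± 1.04, BAD at 17.8 ± 0.147, BID at 12.8 ± 0.823, BAX at 12.6 ± 1.14, BCL2L11 at 6.50 ± 0.145, BBC3 at 2.46 ± 0.113 and BCL2 at 0.0126 ± 0.0045. BID and BAX overlapped between libraries in both groups, so their order is not resolved. In siALKBH5 the order was the same except for 1 exchange: BAD, at 17.7 ± 0.983 CPM per kb (SD, n = 2), stood above PMAIP1, at 15.6 ± 0.136. Among the anti-apoptotic members, MCL1 made up 65.2% to 68.1% of the summed level in each library.

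MCL1 (ENSG00000143384), an anti-apoptotic protein that binds BAK1, NOXA and BIM, lies on the minus strand of chromosome 1 of GRCh38 from 150574551 to 150579738. The siControl libraries held 6562 and 7484 reads of MCL1, against 6470 and 5592 with siALKBH5. After scaling, these were 407.3 and 416.0 CPM in siControl and 346.4 and 339.8 CPM in siALKBH5. The groups did not overlap, as for 66.3% of all genes tested, and the gap between them exceeded the spread between duplicates. This was a log2 fold change of -0.26 with a 95% interval from -0.32 to -0.21 (SE 0.03, adjusted p = 5.9e-10 by edgeR's quasi-likelihood test). Over 10 other settings of the fit the log2 fold change of MCL1 was -0.28 to -0.25.

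BCL2L1 (ENSG00000171552), which encodes the anti-apoptotic BCL-xL and, by alternative splicing, the shorter pro-apoptotic BCL-xS, lies on the minus strand of chromosome 20 from 31664452 to 31723989. Counts per gene do not separate these isoforms. Its reads numbered 2366 and 2661 with siControl and 2620 and 2219 with siALKBH5, or 146.8 and 147.9 CPM against 140.3 and 134.8 CPM. The groups did not overlap, as for 66.3% of all genes tested, but the difference was small, at -0.10 on the log2 scale (SE 0.04, adjusted p = 0.037 by edgeR). The call was lost with DESeq2 (adjusted p = 0.18), without the expression filter (0.082 by edgeR), and with 3 of the 4 libraries left out in turn, siControl replicate 1 (0.10), siControl replicate 2 (0.15) and siALKBH5 replicate 2 (0.29). In the annotation, 43.0% of the exonic bases of BCL2L1 are shared with ABALON, a noncoding gene on the opposite strand, and no strand-marking step is described in the protocol. ABALON itself had 19 to 34 counts per library and did not pass the test.

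BCL2 (ENSG00000171791), the founding member of the family, lies on the minus strand of chromosome 18 from 63123346 to 63320128. Only 3 and 2 reads were counted with siControl and 2 and 6 with siALKBH5, and its summed counts of 5 and 8 correspond to a ratio of 1.55 with an exact 95% binomial interval from 0.448 to 6.03, which covers counting error only. A change of BCL2 was not detectable at this depth, and no ratio of BCL2 to BAX was computed.

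BAK1 (ENSG00000030110), the pore former that resides on the mitochondrial outer membrane, lies on the minus strand of chromosome 6 from 33572547 to 33580293. The duplicates gave 968 and 1015 reads with siControl and 1369 and 1313 reads with siALKBH5. These were 60.1 and 56.4 CPM in siControl and 73.3 and 79.8 CPM in siALKBH5. There was no overlap between the groups, as for 66.3% of all genes tested. The rise was 0.39 on the log2 scale, with a 95% interval from 0.28 to 0.51 (SE 0.05, adjusted p = 5.2e-07 by edgeR), and it ranged from 0.34 to 0.46 with each library left out in turn. A processed pseudogene, BAK1P1, took 31 to 53 counts per library. These counts do not give the number of reads shared with BAK1, and a part of such reads in its change was not tested.

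BAX (ENSG00000087088), the pore former that moves from the cytosol to the mitochondria, lies on the plus strand of chromosome 19 from 48954815 to 48961798. BAX was counted 560 and 550 times with siControl and 597 and 554 times with siALKBH5, or 34.8 and 30.6 CPM against 31.96 and 33.7 CPM. The groups overlapped. The log2 fold change was 0.0084 with a 95% interval from -0.15 to 0.17 (adjusted p = 0.95 by edgeR), so a rise of the size seen for BAK1 lies outside the interval.

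Among the BH3-only genes, 2 of 5 fell, where 17.3% of all genes tested were lower. PMAIP1 (ENSG00000141682), which encodes NOXA, a protein that binds MCL1, lies on the plus strand of chromosome 18 from 59899948 to 59904306. Reads of PMAIP1 numbered 728 and 754 with siControl and 648 and 578 with siALKBH5, which were 45.2 and 41.9 CPM and 34.7 and 35.1 CPM. The groups did not overlap, as for 66.3% of all genes tested. The difference was -0.32 on the log2 scale (SE 0.07, adjusted p = 0.00040 by edgeR), and it ranged from -0.37 to -0.26 with each library left out. BCL2L11 (ENSG00000153094), which encodes BIM, an activator of BAX and BAK1, lies on the plus strand of chromosome 2 from 111119378 to 111168447. Reads of BCL2L11 numbered 708 and 766 with siControl and 644 and 547 with siALKBH5, or 43.9 and 42.6 CPM against 34.5 and 33.2 CPM. These groups did not overlap either. BCL2L11 differed by -0.35 on the log2 scale (SE 0.07, adjusted p = 0.00010 by edgeR), with a range from -0.38 to -0.32 with each library left out. The noncoding gene MIR4435-2HG on the opposite strand overlaps 10.9% of the exonic bases of BCL2L11 and had a log2 fold change of 0.14 (adjusted p = 0.14 by edgeR).

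The other BH3-only genes did not pass the test. BID (ENSG00000015475), which caspase-8 cleaves to link death receptors to mitochondria, had 59.6 and 54.5 CPM in siControl and 58.5 and 56.9 CPM in siALKBH5. BAD (ENSG00000002330), which growth factor signalling holds inactive by phosphorylation, had 30.5 and 30.2 CPM against 31.5 and 29.1 CPM. BBC3 (ENSG00000105327), which encodes PUMA, a protein that binds all anti-apoptotic members, had 8.07 and 7.56 CPM against 8.41 and 8.20 CPM. The libraries of the groups overlapped for BID and BAD. BBC3 was higher in both siALKBH5 libraries than in both siControl libraries, as 66.3% of all genes tested did not overlap between the groups, and its log2 fold change was 0.09 with a 95% interval from -0.20 to 0.38. The intervals were -0.10 to 0.14 for BID and -0.16 to 0.16 for BAD, so the folds of MCL1, PMAIP1, BCL2L11 and BAK1 all lie outside these 2 intervals. For BAD, 23.7% of the exonic bases are shared with GPR137 on the opposite strand.

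**Figure D2:**
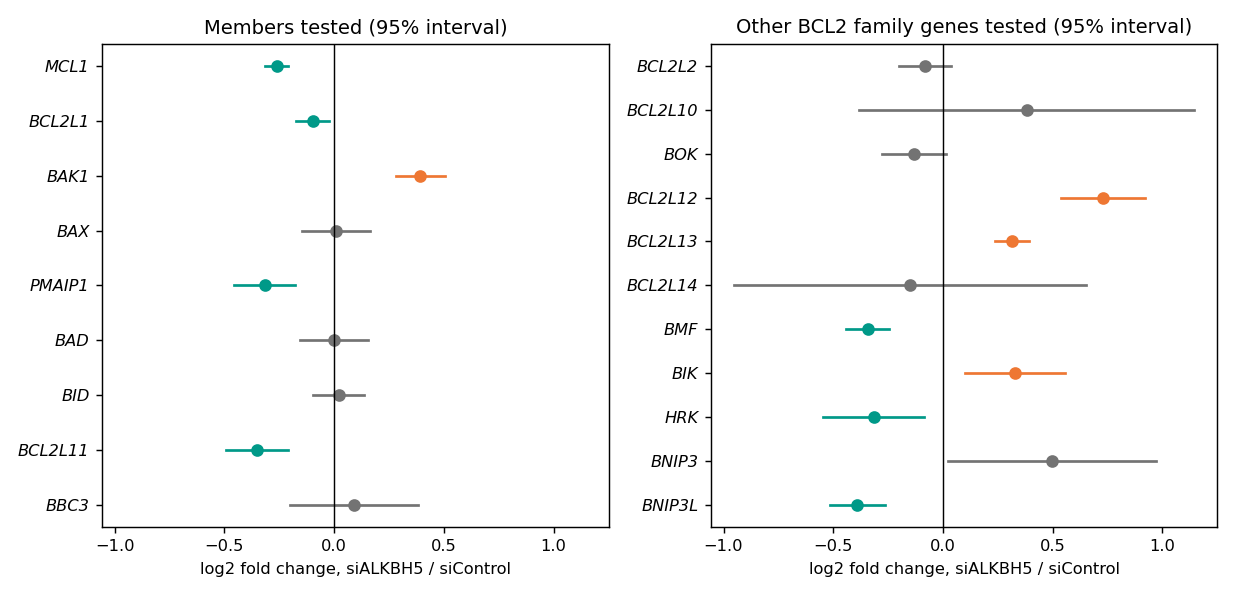
Points are log2 fold changes of siALKBH5 over siControl with 95% intervals from edgeR, for the 9 members tested (left) and 11 other BCL2 family genes (right). Orange marks genes called higher and teal genes called lower (adjusted p below 0.05), and grey marks genes not called; BAK1 at 0.39 is the 1 member in orange.

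Ratios within a library do not depend on how libraries are scaled to each other, so they were computed as levels per kb in each library. They are given without a test, because 2 libraries against 2 cannot give a two-sided exact permutation p under 0.333. The size of a ratio depends on the gene lengths used, while the relative change of a ratio of 2 genes between the groups does not. The ratio of MCL1 to BAK1, which was chosen after the values were seen, was 3.43 and 3.73 in siControl and 2.39 and 2.16 in siALKBH5. BAK1 to BAX, chosen in the same way, went from 2.02 and 2.16 to 2.68 and 2.77. MCL1 to BAX was 6.94 and 8.05 in siControl and 6.41 and 5.97 in siALKBH5. These 3 ratios did not overlap between the groups. MCL1 to BAK1 and BAK1 to BAX were chosen on the changes of MCL1 and BAK1, so they restate those changes. Single genes did not overlap in 66.3% of all genes tested, and the share for ratios of any 2 genes was not computed. MCL1 to BCL2L11, also chosen after the values were seen, did not overlap either, with 14.1 and 14.9 in siControl and 15.3 and 15.6 in siALKBH5. The ratio of MCL1 to PMAIP1, its BH3-only partner, was 4.61 and 5.08 in siControl and 5.11 and 4.95 in siALKBH5 and overlapped between the groups. BCL2L1 to BAX also overlapped, with 3.30 and 3.78 against 3.43 and 3.13.

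Summed by role, the anti-apoptotic members had 138.7 ± 1.63 CPM per kb (SD, n = 2) in siControl and 120.0 ± 2.21 in siALKBH5, or 86.6% of the control. The summed level of the effectors BAX and BAK1 was 39.0 ± 2.32 CPM per kb in siControl and 47.3 ± 2.54 in siALKBH5, or 121.4%. The BH3-only members summed to 59.0 ± 2.27 and 54.0 ± 1.28 CPM per kb, or 91.5%. The ratio of anti-apoptotic members to effectors was therefore 3.39 and 3.75 in siControl and 2.67 and 2.41 in siALKBH5. The ratio of anti-apoptotic to BH3-only members moved less, from 2.27 and 2.43 to 2.21 and 2.23. Per kb of gene length, MCL1 and BAK1 make up most of their sums, so these values mainly restate those genes. The weight of each member depends on the length used, as for BAX with a gene length of 2587 bases and a transcript of 793.

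**Figure D3:**
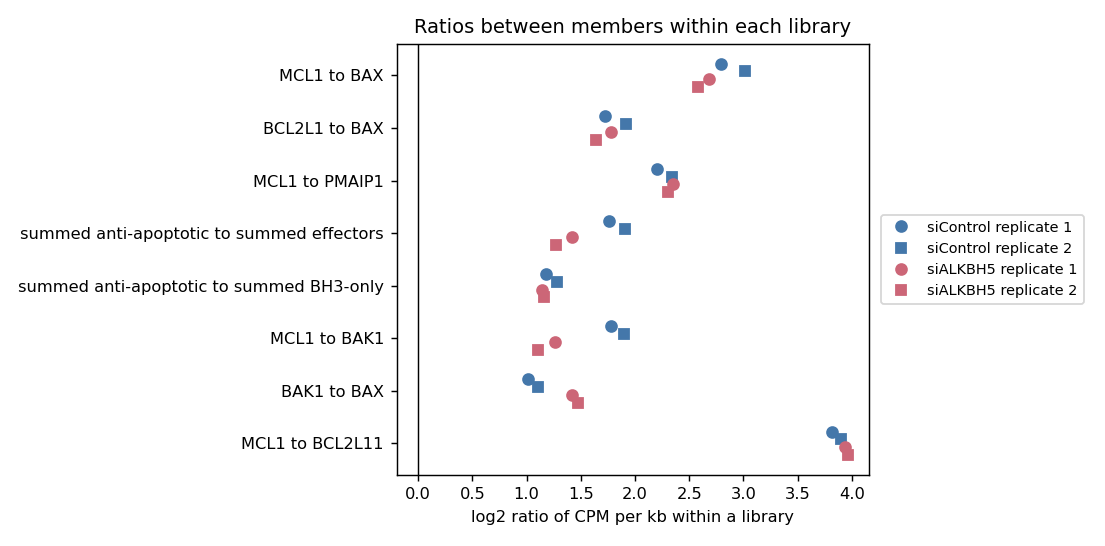
The horizontal axis gives the log2 ratio between members, or sums of members, within a library, with 1 point per library (circles for replicate 1, squares for replicate 2). The ratio of MCL1 to BAK1, chosen after the values were seen, is 3.43 and 3.73 in siControl and 2.39 and 2.16 in siALKBH5. That of MCL1 to PMAIP1 overlaps between the groups.

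Sequence features of the transcripts were then compared, since ALKBH5 acts on m6A in RNA. One APPRIS principal transcript of GENCODE 29 was used per gene where there was one, and the 3′UTR was searched on the sense strand for GGACT, a common form of the m6A consensus, and for ATTTA, the core of AU-rich elements that mark unstable mRNAs. Other transcripts of a gene were not searched. For BCL2L11 the transcript used has 1522 bases, beside 6658 exonic bases of the gene. GGACT was found in the 3′UTR of 9 of 10 members, all except BAD, and in 53.5% of 18901 genes. In coding sequences, BAD, MCL1, BCL2L1 and BID held 2 copies each, BAX and BBC3 held 1 each, and the other members held 0. The share of all genes that hold it there was not computed. Per kb of 3′UTR, the members that fell held 0.644 (PMAIP1) to 2.45 (BCL2L11) copies, BAK1 held 4.0, and those not called held from 0 (BAD) to 6.17 (BAX, in a 3′UTR of 162 bases). The median over all genes was 0.386 copies per kb, and the motif was present in members that rose, fell or were not called. The first copy after the stop codon is shown for the 5 members that passed the test, with GGACT in capitals and GRCh38 coordinates.
MCL1, chr1:150577292-150577316, minus strand: ttatgcagttGGACTccaagctgta
BCL2L1, chr20:31665374-31665398, minus strand: gcaaggaccaGGACTccctcctcac
BAK1, chr6:33573745-33573769, minus strand: acccctgcctGGACTtaagcgaagt
PMAIP1, chr18:59902767-59902791, plus strand: ttgcatgaggGGACTccttcaaaag
BCL2L11, chr2:111164375-111164399, plus strand: gagctggatgGGACTacctttctgt
Counted from the first base after the stop codon, GGACT starts at base 69 in MCL1, 561 in BCL2L1, 44 in BAK1, 24 in PMAIP1 and 154 in BCL2L11. A match is a description of these letters, and whether these sites carry m6A was not examined here.

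ATTTA was found in the 3′UTR of 6 of 10 members and of 64.5% of 18901 genes. All 4 members that fell held it, with 10 copies in MCL1, 5 in PMAIP1, 3 in BCL2L1 and 1 in BCL2L11. Of these, BCL2L1 kept its call in only 5 of 10 other settings. BAK1, which rose, held none in its 3′UTR of 1251 bases, and neither did BAX, BAD and BBC3. ATTTA was chosen after values were seen, and a part of it in these changes was not tested. BID held 2 copies and BCL2 13. The 3′UTRs of the members that fell were 817 to 2819 bases long in the transcripts searched. The 817 bases are those of BCL2L11, whose transcript searched encodes 138 residues, and its copies elsewhere in the gene were not counted. Per kb of 3′UTR, MCL1 held 3.55 copies, PMAIP1 3.22, BCL2L1 2.0 and BCL2L11 1.22, beside a median of 1.41 over all genes. The first copy is shown for MCL1 and PMAIP1, the pair with most copies among the members that fell, with ATTTA in capitals.
MCL1, chr1:150577091-150577115, minus strand: ggacttttagATTTAgtgaagatgg
PMAIP1, chr18:59903963-59903987, plus strand: gaataattttATTTAttttgcctat

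Beyond the 10 members, 13 other genes of the BCL2 family were examined, of which 11 were tested, 3 were higher and 3 were lower, with a median log2 fold change of -0.080. These calls are 27.3% of the genes tested in each direction, beside 19.3% higher and 17.3% lower over all genes tested. BCL2L13, a mitophagy receptor of the outer membrane, rose with a log2 fold change of 0.32 (adjusted p = 2.5e-08 by edgeR). BCL2L12 rose by 0.73 on the log2 scale, from 300 and 282 counts in siControl to 509 and 486 in siALKBH5, although 33.1% of its exonic bases are shared with IRF3. BIK, a BH3-only protein of the endoplasmic reticulum, rose by 0.33 by edgeR. Like PMAIP1 and BCL2L11, the BH3-only genes BMF and HRK fell, with log2 fold changes of -0.34 and -0.32, and so did BNIP3L, a mitophagy receptor, with -0.39. The calls of BIK and HRK were lost with DESeq2 (adjusted p = 0.10 and 0.14) and without siControl replicate 2, and those of the other 4 genes were kept in all 10 other settings. Among the genes not called, BCL2L2, an anti-apoptotic protein also known as BCL-w, had a log2 fold change of -0.08 (95% interval -0.20 to 0.04), and the effector-like BOK of -0.13 (95% interval -0.28 to 0.02). BNIP3, a hypoxia-induced mitophagy receptor, had 0.50 with an adjusted p of 0.096 by edgeR, from 44 to 68 counts per library. BCL2L10 and BCL2L14 had intervals wider than 1.5 on the log2 scale, and BCL2A1 and BCL2L15 had 0 to 7 counts per library and were not tested.

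Downstream of the mitochondria, 3 of 15 genes rose and 1 fell, with a median log2 fold change of -0.0012. That is 20% higher and 6.67% lower, where 19.3% of all genes tested were higher and 17.3% lower. AIFM1, an oxidoreductase released on permeabilisation, rose by 0.39 on the log2 scale, VDAC2, the channel that recruits BAK1 and BAX, rose by 0.21, and PARP1, a caspase substrate, rose by 0.22. The apoptosome genes were not called, with log2 fold changes of -0.042 for CYCS, -0.0012 for APAF1 and 0.062 for CASP9. DIABLO had 21 to 29 counts per library at the entry used. Of its exonic bases, 30.4% are shared with other entries, among them another entry named DIABLO, so these counts may not give its full level.

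The inhibitor of apoptosis proteins, which block caspases, gave 2 higher and 3 lower genes among the 5 tested of 7, with a median log2 fold change of -0.14. Over all genes tested, 19.3% were higher and 17.3% lower. BIRC5, or survivin, which also acts in chromosome segregation, rose with a log2 fold change of 1.13 (SE 0.06, adjusted p = 9.6e-17 by edgeR), from 580 and 658 counts to 1546 and 1246. BIRC2, an E3 ligase of TNF receptor signalling, fell with -0.33, BIRC6 with -0.14 and XIAP, the direct caspase inhibitor, with -0.20. BIRC3 rose by 0.26 on the log2 scale. BIRC5 and BIRC2 kept their calls in all 10 other settings, while XIAP (adjusted p = 0.16), BIRC6 (0.16) and BIRC3 (0.17) lost theirs with DESeq2, without the filter, and without siControl replicate 2 or siALKBH5 replicate 2.

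In the death receptor arm, which feeds into BID, none of 11 genes tested rose and 3 fell by edgeR, where 19.3% of all genes were higher and 17.3% lower, with a median log2 fold change of -0.070. TNFSF10, which encodes the death ligand TRAIL, fell most in this list, at -0.76 on the log2 scale (SE 0.03, adjusted p = 3.8e-20 by edgeR), from 5063 and 5774 counts in siControl to 3537 and 3061 in siALKBH5. CFLAR, the inhibitor of caspase-8 activation, fell with -0.26 and the adaptor TRADD with -0.14. The call of TRADD was lost with DESeq2 (adjusted p = 0.175) and, like that of CFLAR, without siALKBH5 replicate 2, while TNFSF10 kept its call in all 10 other settings. CASP8, with 0.11, and the TRAIL receptor TNFRSF10B, with -0.15, were not called.

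Of 12 transcription factors that act on family members, 3 were higher and 3 were lower, with a median log2 fold change of 0.035. That is 25% in each direction, beside 19.3% higher and 17.3% lower over all genes tested. TP73, an activator of BBC3, rose by 1.04 on the log2 scale (adjusted p = 5.0e-08 by edgeR) and E2F1, a factor of cell cycle entry, by 0.65. DDIT3, the CHOP factor of the endoplasmic reticulum stress response that induces BCL2L11, had a log2 fold change of -0.36, STAT3, an activator of MCL1, of -0.13 and the epidermal factor TP63 of -0.09, and these 3 fell by edgeR. With DESeq2 the calls of DDIT3 (adjusted p = 0.13), TP63 (0.092) and E2F1 (0.074) were lost. These 3 genes each kept their calls in 7 of the 10 other settings, while STAT3 and TP73 kept theirs in all 10. E2F1 had 143 and 86 counts in siALKBH5, beside 74 and 67 in siControl. FOXO3, another activator of BCL2L11, and ATF4, an activator of PMAIP1, were not called, with log2 fold changes of 0.034 and 0.0054.

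Of 15 genes for protein turnover and binding of family members, 7 were higher and 3 were lower, with a median log2 fold change of 0.083. These are 46.7% and 20% of the list, beside 19.3% and 17.3% of all genes tested. HUWE1, a ubiquitin ligase of MCL1, rose by 0.41 on the log2 scale (adjusted p = 1.0e-14 by edgeR), and so did USP9X, the deubiquitinase of MCL1, by 0.16. HUWE1 kept its call in all 10 other settings and USP9X in 9 of them. FBXW7, another ligase adaptor of MCL1, fell with a log2 fold change of -0.40. The 3 genes of 14-3-3 proteins in this list, which hold phosphorylated BAD in the cytosol, rose, with 0.24 for YWHAE, 0.20 for YWHAQ and 0.083 for YWHAZ, and AKT1, a BAD kinase, rose by 0.21. RPS6KB1 and MAPK8, kinases that phosphorylate BAD and BIM, fell with -0.42 and -0.29. FBXW7 and MAPK8 were not called with DESeq2 (adjusted p = 0.061 and 0.058) or without siControl replicate 2, and RPS6KB1 kept its call in all 10 other settings.

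**Figure D4:**
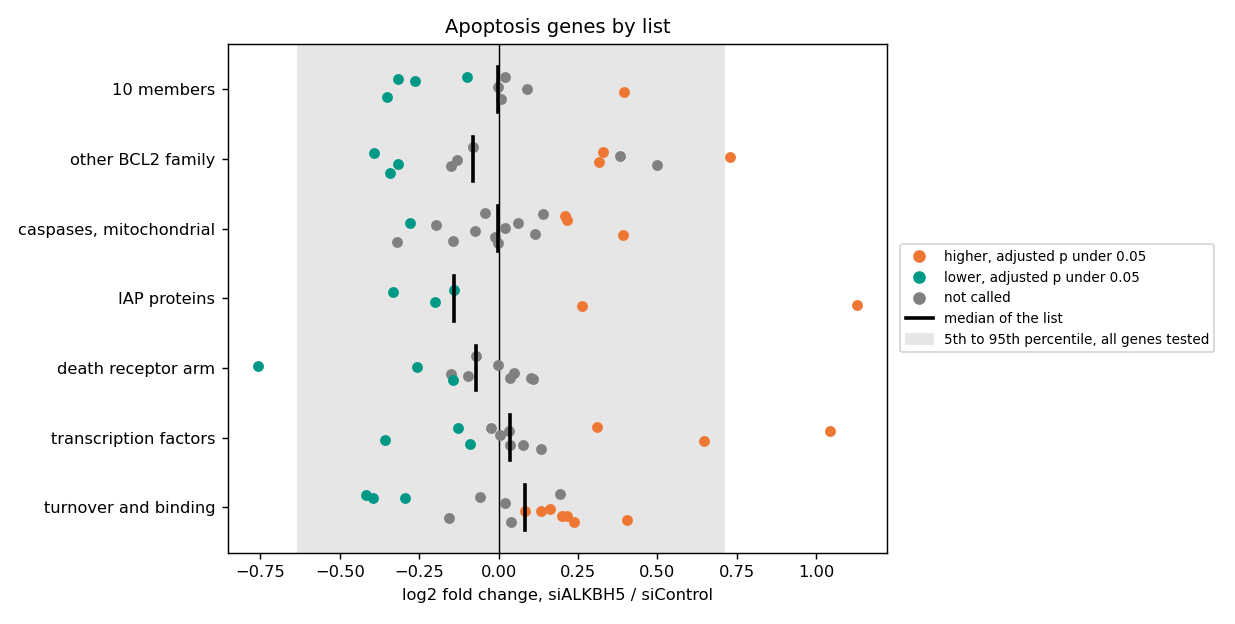
Each point is the log2 fold change of 1 tested gene in a list, black bars are list medians, and the grey band runs from the 5th to the 95th percentile of all genes tested (-0.63 to 0.71). Orange and teal mark genes called higher and lower; all 9 members tested lie inside the band, while BIRC5 at 1.13, TP73 at 1.04, BCL2L12 at 0.73 and TNFSF10 at -0.76 lie outside it.

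**Figure D5:**
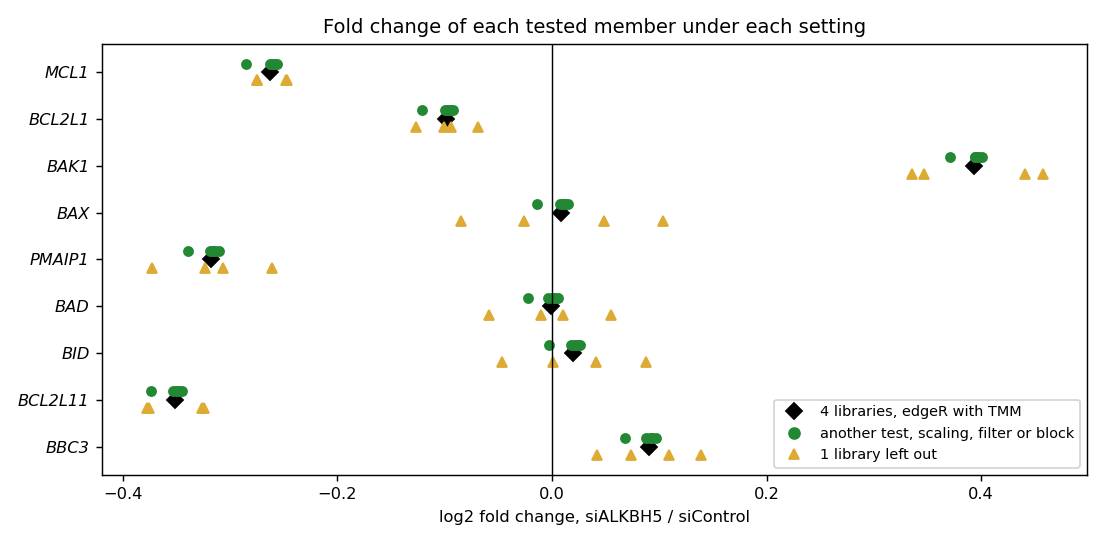
The horizontal axis gives the log2 fold change of each of the 9 members tested under each setting: black diamonds for the 4 libraries with edgeR and TMM, green circles for another test, scaling, filter or the replicate block, and yellow triangles with 1 library left out. MCL1, PMAIP1 and BCL2L11 stay below 0 and BAK1 stays above 0 throughout, while BAX, BAD and BID lie on both sides of 0.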

How the data were processed

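Raw counts per gene and FPKM were deposited by the authors in 1 table per replicate, each with 1 siControl and 1 siALKBH5 library of poly-A RNA, and the table labelled as the replicate was taken as replicate 2. The submitters' processing notes name HISAT2 2.0.5, featureCounts 1.5.0-p3, DESeq2 1.20.0 and hg38. The deposited FPKM, scaled within each table, and the deposited fold changes and p-values of 1 library against 1 were not used. Gene lengths are the deposited ones. Coordinates of the members matched GENCODE 29 on GRCh38.

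The raw counts of 4 libraries were compared by the quasi-likelihood test of edgeR 4.0.16 under R 4.3.3, after filterByExpr and TMM scaling and without covariates, over all 15075 genes that passed the filter, with Benjamini-Hochberg adjustment. Standard errors come from the same model. DESeq2 1.42.0, other scalings and filters, a replicate block and leaving out single libraries were alternatives. The libraries of a group differed beyond sampling noise (chi-square per degree of freedom 1.73 and 1.85). The common biological coefficient of variation was 0.0253. Steps were tested on simulated data.

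Members and gene lists were chosen with earlier results of these data known. Named genes are the members, ALKBH5, the listed BCL2 family genes and up to 4 called genes with the smallest adjusted p per list. Some genes that this rule names are counted in their lists but not reported here. All other list genes named, the overlapping genes, the pseudogene, 3 of the ratios and the motifs were chosen after values were seen.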

Additional observations from a re-analysis of the deposited data

How the results depend on the processing

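MCL1, PMAIP1, BCL2L11 and BAK1 kept their direction and call under all 10 settings with a test, and 3 or 4 members were lower and 1 was higher in each. With a minimum absolute log2 fold change of 1 these counts were 0 and 0. BCL2L1 had log2 fold changes of -0.095 with DESeq2 and -0.092 without a filter, neither called, and -0.13 to -0.069 with each library left out. Of the uncalled members, BBC3 kept its sign in all 10 settings and the other 3 did not: BAD to 0.0027 with DESeq2, 0.0023 with DESeq2 size factors, 0.0060 without a filter and 0.00046 at a mean of at least 10 counts, and BAX to -0.014 and BID to -0.0024 with library size only. With each library left out they ranged from -0.085 to 0.10 (BAX), -0.059 to 0.055 (BAD) and -0.047 to 0.087 (BID). Replicate 1 alone, chosen after seeing the data, gave -0.12 (BAX), -0.027 (BID) and 0.044 (BAD), and replicate 2 alone -0.36 for BCL2L11. The cause was not tested.

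With DESeq2, 1431 genes were lower in place of 2610. Inhibitor of apoptosis genes were 1 higher and 1 lower with DESeq2 or no filter and 1 higher with library size only. Transcription factors were 1 lower, and turnover genes 1 lower, with DESeq2. With each library left out, the counts were 1 to 2 higher and 1 to 3 lower (inhibitors of apoptosis), 1 to 3 lower (death receptor arm), 1 to 3 lower (transcription factors) and 1 to 3 lower (turnover). The low ends came without siControl replicate 2 or siALKBH5 replicate 2, and for higher inhibitors of apoptosis also without siALKBH5 replicate 1. Without BIRC5, E2F1, TP73 and BCL2L12, a setting also chosen after seeing the data, 1 inhibitor of apoptosis gene and 1 transcription factor were higher. In means over all 4 libraries, 3 members had another rank by CPM without gene length than by CPM per kb. The orders given above are those of each group.

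Each deposited table holds 1 library per group, and the labels do not say that the libraries of a table share a culture or day. Deviations of libraries from the same table correlated at 0.034 over all genes tested. Counting noise lowers such a correlation, so it cannot decide whether the libraries are pairs. The methods of the study name no covariate, and the main fit did not treat the libraries as pairs. With the replicate block 1 member was higher and 4 were lower, as without it, with 3091 genes higher and 2831 lower.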
